A study of Homo sapiens with 8 samples.

Results

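Direct p53 target genes, which are genes whose promoters or introns p53 is known to bind, were followed through RNA sequencing of 8 libraries of MEL202, a human uveal melanoma cell line that carries mutant SF3B1. A locus counted when its gene name equalled 1 of 34 listed symbols, and for each symbol the locus with the highest mean over the 8 libraries was taken if that mean was at least 1. This left 26 of the 34 genes among 32087 loci, and 25 of the 26 had a mean of at least 5 and entered the test together with the other named genes, 8599 in all. TNFRSF10A was listed between 0 and 0.83 and SPATA18 at 0 in all 8 libraries, and both fell under the minimum. MDM4, TNFRSF10B, BBC3, PHLDA3, RRM2B and TRIM22 were not analysed here.

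The libraries came from 4 lines, each without and with Shld, a small ligand that protects a destabilising domain fused to a protein, so that its withdrawal leaves the fused protein to be degraded. The knockout line had lost its mutant SF3B1 allele, the wildtype degron line carried the destabilising domain on wildtype SF3B1, the mutant degron line carried it on mutant SF3B1, and parental cells were the control. The labels give 2 days for the 6 libraries of the edited lines and give each line as 1 clone. The deposited column headers differ for the knockout line: they add a destabilising domain on wildtype SF3B1 and give 4 days without Shld, the time they also give for parental cells without Shld, against 2 days for the degron lines. Which account holds for the knockout line is not settled by the sources used here, and its withdrawal therefore differs from those of the degron lines in time as well as genotype by the headers. Each of the 8 groups had 1 library.

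p53 is a transcription factor that is kept scarce by its own target MDM2, a ubiquitin ligase, and accumulates when DNA damage, ribosome stress or other insults interrupt that control. It then binds a pair of short palindromic elements near its targets and raises genes for cell cycle arrest, apoptosis, DNA repair and metabolism, along with genes that switch p53 off again. SF3B1 is a core subunit of the U2 snRNP, which recognises the branch point of introns.

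Values are FPKM rescaled by the authors, a level per transcript length. Differences are on the log2(value + 1) scale, without less with Shld or edited line less parental, and a gene was called at a Benjamini-Hochberg adjusted p under 0.05 in limma over all 8599 genes. The spread came from the 2 parental libraries alone, and each other library was assumed to vary as they do, so the p-values measure only the spread between these libraries, which may be technical. Because these are bulk libraries, fewer cells of a kind and less RNA per cell cannot be told apart.

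As a check of the lines, SF3B1 stood at 138 and 158 in the knockout line without and with Shld, while the wildtype degron line had 201 and 188, the mutant degron line 252 and 248 and parental cells 240 and 266. With Shld the knockout line was lower than parental cells by limma (log2 difference -0.68 ± 0.18 SE, Benjamini-Hochberg adjusted p = 0.0065). It was not called against the wildtype degron line (-0.25, limma, adjusted p = 0.37) or the mutant degron line (-0.65, adjusted p = 0.067). The wildtype degron line was itself lower than parental cells by -0.42, not called (limma, adjusted p = 0.074). The level thus does not set the knockout line apart from the wildtype degron line. The degron acts on the protein, so the RNA of the degron lines checks nothing. Summed values were 762679 to 961994 per library, the 75th percentile was 9.99 to 10.00, and ribosomal protein genes took 11.8% and 12.1% of the sum in the wildtype degron line against 16.6% to 20.99% in the other 6 libraries. Melanocyte markers, 11 of 14 in the table, summed to between 6616 and 15728, lowest in the knockout line without Shld and highest in the wildtype degron line with Shld. Markers of epithelial, endothelial and leukocyte cells summed to at most 1.41 per library, with CD3E at 0, and fibroblast markers to between 1.79 and 30.9, with THY1 at 0 and LUM the one gene of 5 whose mean reached 1.

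In the knockout line 11 of the 25 tested targets rose on Shld withdrawal and none fell, where 0.965% of all genes were called higher and 1.77% lower. The largest rises were in CDKN1A, the inhibitor of cyclin-dependent kinases known as p21, and GDF15, a secreted stress hormone, followed by ZMAT3, BTG2 and TP53INP1. All 25 differences lay above 0, where 50.6% of all genes did. The median of the 25 was 0.53, against a median of 0.003 over all genes. Withdrawal from the degron lines called none of the 25, with a median of 0.14 where wildtype SF3B1 carried the domain and -0.003 where mutant SF3B1 did. When the filter was lowered to a mean of 1, the number of targets that rose was 6, and with the spread of the parental and mutant degron pairs it was 7. Summed melanocyte markers were 6616 and 7382 without and with Shld in the knockout line, and their part in these differences was not tested. Over 7 alternative settings CDKN1A, GDF15, ZMAT3, BTG2, TP53INP1 and MDM2 were called in 6. SESN1 was called in 5, GADD45A in 4, DRAM1 and PLK3 in 3 and RPS27L in 1. With no filter on the mean none of the 11 was called.

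**Figure D1:**
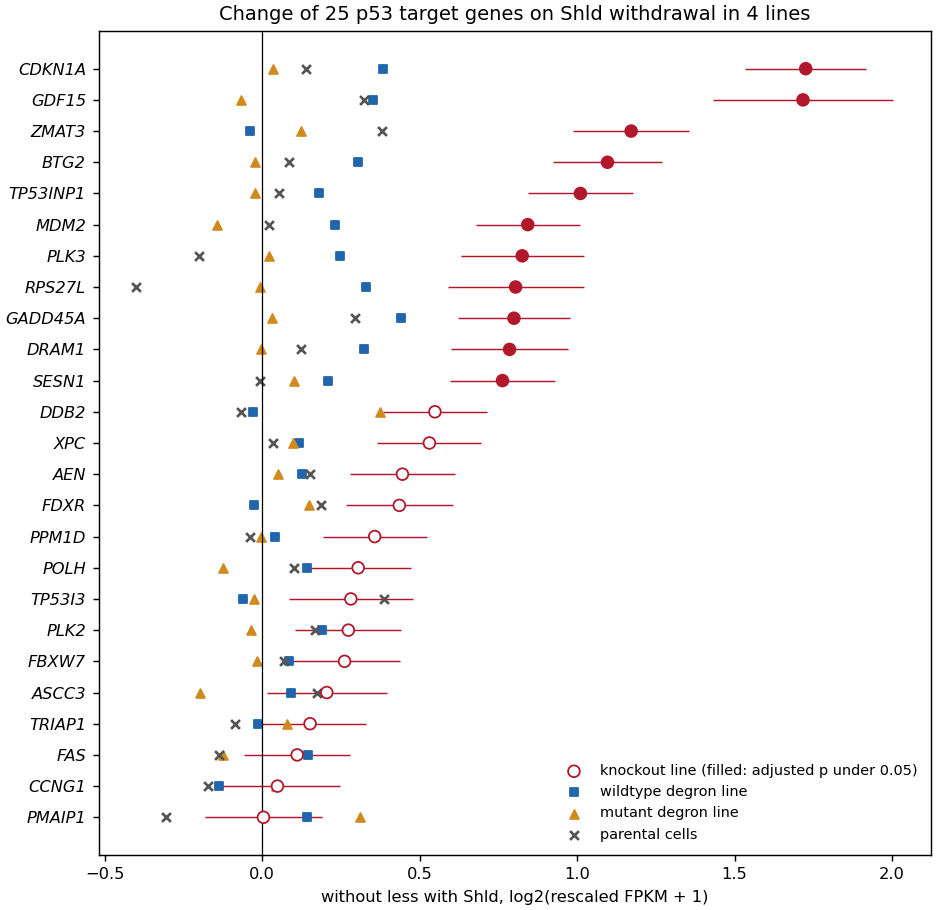
Change of 25 direct p53 target genes on Shld withdrawal, without less with Shld on the log2(rescaled FPKM + 1) scale (x axis), 1 gene per row. Red circles are the knockout line with its SE and are filled for the 11 genes past an adjusted p of 0.05, and squares, triangles and crosses are the wildtype degron line, the mutant degron line and parental cells. The knockout line reaches 1.73 at CDKN1A, while no difference in the other 3 lines exceeds 0.44.

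The promoters of 23 members were found in the RefSeq promoter table, build GRCh38.p14, which gives 250 bases before to 50 after each start. They were searched on both strands for the p53 consensus, a 10-base element that occurs alone or as a pair. A gene with several starts was counted if any of its windows held a match. A single exact copy was found in 7 of the 23 genes, which is 30.4%, against 7.34% of the genes tested and 8.06% of all genes in the promoter table. A pair with at most 2 mismatches in all and at most 13 bases between the copies was found in 5 of the 23 (21.7%), against 3.58% of the genes tested and 3.62% of all genes. The 5 were AEN, DDB2, FAS, FDXR and MDM2. Of the 9 genes with a promoter here that rose in the knockout line, 2 held a single exact copy and 1 the pair, and of the other 14, 5 held a single copy and 4 the pair. The list was made of genes that p53 is known to bind. A larger share of matches than over all genes therefore follows in large part from that choice and is no result of these libraries. A match is a description of letters in this window, and known p53 elements of many targets lie outside it. The 4 windows below are shown because they set 3 genes that rose beside DDB2, which has the closest pair and was not called. MDM2, SESN1 and DDB2 each also have a window at another start that held no match. The MDM2 window shown lies at chr12:68808767-68809066 on the plus strand with a pair in capitals that carries 2 mismatches. RPS27L lies at chr15:63157428-63157727 on the minus strand and SESN1 at chr6:109008939-109009238 on the minus strand, each with 1 exact single copy in capitals. DDB2 lies at chr11:47214724-47215023 on the plus strand with a pair in capitals that has 0 mismatches and 1 base between the copies.
MDM2: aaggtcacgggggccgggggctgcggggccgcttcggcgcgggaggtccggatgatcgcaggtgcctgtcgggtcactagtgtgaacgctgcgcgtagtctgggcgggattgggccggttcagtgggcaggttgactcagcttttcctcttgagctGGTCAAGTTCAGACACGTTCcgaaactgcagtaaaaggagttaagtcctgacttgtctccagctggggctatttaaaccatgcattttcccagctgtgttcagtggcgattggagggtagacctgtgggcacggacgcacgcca
RPS27L: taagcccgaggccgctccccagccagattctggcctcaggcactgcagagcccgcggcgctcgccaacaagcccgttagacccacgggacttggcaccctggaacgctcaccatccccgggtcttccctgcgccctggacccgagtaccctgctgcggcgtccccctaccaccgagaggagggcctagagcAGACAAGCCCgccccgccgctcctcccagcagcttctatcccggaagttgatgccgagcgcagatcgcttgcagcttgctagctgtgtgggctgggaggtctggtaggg
SESN1: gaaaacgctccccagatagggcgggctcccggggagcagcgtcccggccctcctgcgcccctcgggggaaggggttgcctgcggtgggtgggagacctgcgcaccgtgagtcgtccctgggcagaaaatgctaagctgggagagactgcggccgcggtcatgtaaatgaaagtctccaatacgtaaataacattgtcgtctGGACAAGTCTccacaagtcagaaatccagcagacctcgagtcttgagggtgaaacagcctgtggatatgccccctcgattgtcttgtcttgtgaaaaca
DDB2: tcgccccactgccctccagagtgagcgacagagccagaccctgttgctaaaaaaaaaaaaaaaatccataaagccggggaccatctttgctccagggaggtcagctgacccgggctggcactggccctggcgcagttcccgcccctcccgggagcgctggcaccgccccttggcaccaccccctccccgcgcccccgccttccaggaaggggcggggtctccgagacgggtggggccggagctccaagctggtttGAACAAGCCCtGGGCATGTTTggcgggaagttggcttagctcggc

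Of the 5 cell cycle arrest genes, 4 rose on withdrawal in the knockout line, where 0.965% of all genes were called higher. This count and those of the other roles below rest on few genes each, and differences between roles were not tested. CDKN1A, which stops the cell cycle by inhibiting cyclin-dependent kinases, stood at 296 and 88.9 without and with Shld in the knockout line, while the wildtype degron line had 155 and 118, the mutant degron line 96.5 and 94.3 and parental cells 109 and 98.9. The knockout library without Shld stood far above the other 7, of which the wildtype degron library without Shld was next. The rise in the knockout line was 1.73 ± 0.19 (log2, SE), with a Benjamini-Hochberg adjusted p of 1.5e-05 in limma. BTG2, an antiproliferative cofactor of mRNA deadenylation, had 25.9 and 11.6 without and with Shld in the knockout line, while the wildtype degron line had 10.8 and 8.57, the mutant degron line 10.6 and 10.7 and parental cells 8.04 and 7.52. Again 1 library exceeded all others, and the rise was 1.10 ± 0.17 (limma, Benjamini-Hochberg adjusted p = 0.00082).

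GADD45A, a stress protein of the arrest between G2 and mitosis, had 20.9 and 11.6 without and with Shld in the knockout line, while the wildtype degron line had 15.3 and 11.1, the mutant degron line 13.3 and 12.99 and parental cells 12.9 and 10.3. Its rise in the knockout line was 0.80 ± 0.18 (limma, Benjamini-Hochberg adjusted p = 0.016), and 0.50 once the change in the parental pair was taken off. A second locus under its name stood lower, at 11.04 and 5.47 without and with Shld in the knockout line. There the wildtype degron line had 1.06 and 2.44, the mutant degron line 2.87 and 5.29 and parental cells 2.88 and 6.34. Outside the knockout line this locus was thus lower without Shld, where the main locus was higher. PLK3, a stress-responsive polo-like kinase, had 10.5 and 5.51 without and with Shld in the knockout line, while the wildtype degron line had 4.25 and 3.42, the mutant degron line 5.29 and 5.20 and parental cells 4.24 and 5.02. The knockout library without Shld was the highest for both genes, and PLK3 rose by 0.83 ± 0.20 (limma, Benjamini-Hochberg adjusted p = 0.021). PLK2, its paralogue, had 38.7 and 31.8 without and with Shld in the knockout line, while the wildtype degron line had 12.99 and 11.3, the mutant degron line 29.4 and 30.2 and parental cells 19.3 and 17.1. The ranges of the 4 lines did not overlap, with the knockout line highest and the wildtype degron line lowest, and the withdrawal difference of 0.27 ± 0.17 in the knockout line was not called.

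**Figure D2:**
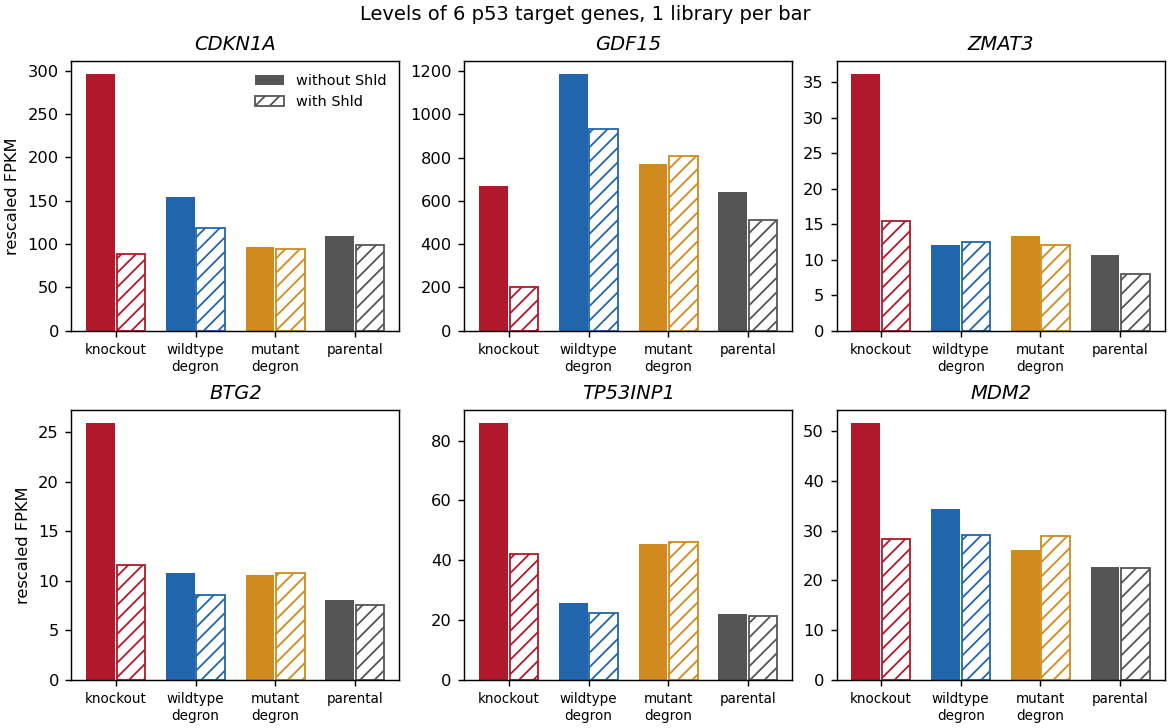
Levels of CDKN1A, GDF15, ZMAT3, BTG2, TP53INP1 and MDM2 in rescaled FPKM (y axis, from 0), with 1 library per bar and therefore no error bars. Filled bars are without Shld and hatched bars with Shld, in the knockout line, the wildtype degron line, the mutant degron line and parental cells. The knockout library without Shld is the highest for each gene but GDF15, where the wildtype degron line reaches 1187.

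Among genes that restrain or turn over p53, MDM2 and RPS27L rose in the knockout line and the other 3 were not called. MDM2, the ubiquitin ligase whose promoter pair is printed above, had 51.6 and 28.4 without and with Shld in the knockout line, while the wildtype degron line had 34.3 and 29.1, the mutant degron line 26.2 and 29.0 and parental cells 22.8 and 22.4. Its rise was 0.84 ± 0.17 (limma, Benjamini-Hochberg adjusted p = 0.0061). RPS27L, a ribosomal protein paralogue that binds MDM2, had 256 and 146 without and with Shld in the knockout line, while the wildtype degron line had 104 and 82.8, the mutant degron line 182 and 183 and parental cells 175 and 232. The 2 parental libraries were thus apart by -0.40 without less with Shld, the widest parental gap of the 25 genes, and the rise of 0.80 ± 0.22 in the knockout line (limma, Benjamini-Hochberg adjusted p = 0.041) was called in 1 of 7 alternative settings, with adjusted p-values of 0.045 to 0.51. Reads of RPS27L and its near copy RPS27, which had 1378 and 1615 in the knockout line, may have been split between them, so its value is uncertain.

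PPM1D, the phosphatase WIP1 that dephosphorylates p53, had 20.2 and 15.5 without and with Shld in the knockout line, while the wildtype degron line had 24.5 and 23.8, the mutant degron line 20.5 and 20.6 and parental cells 23.7 and 24.4. The knockout library with Shld was the lowest of the 8. CCNG1, a cyclin that recruits phosphatase to MDM2, had 150 and 145 without and with Shld in the knockout line, while the wildtype degron line had 104 and 114, the mutant degron line 168 and 163 and parental cells 151 and 171, and its lowest values were those of the wildtype degron line. FBXW7, a substrate receptor of an SCF ubiquitin ligase, ranged between 8.30 and 11.3 over the 8 libraries.

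Of the apoptosis genes, TP53INP1 alone was called in the knockout withdrawal, 1 of 6 tested. TP53INP1, a stress protein that promotes p53 phosphorylation and autophagy, had 85.9 and 42.1 without and with Shld in the knockout line, while the wildtype degron line had 25.6 and 22.5, the mutant degron line 45.4 and 46.2 and parental cells 22.1 and 21.2. The knockout and mutant degron libraries stood above all wildtype degron and parental libraries, and on withdrawal the knockout line rose by 1.01 ± 0.17 (limma, Benjamini-Hochberg adjusted p = 0.0011). AEN, a nuclease of apoptotic DNA digestion, had 45.0 and 32.8 without and with Shld in the knockout line, while the wildtype degron line had 28.3 and 25.8, the mutant degron line 27.2 and 26.2 and parental cells 24.4 and 21.9. The knockout difference of 0.45 ± 0.17 was not called (limma, Benjamini-Hochberg adjusted p = 0.19), although both knockout libraries were above the other 6.

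TRIAP1, a small inhibitor of apoptosis, had 105 and 94.0 without and with Shld in the knockout line, while the wildtype degron line had 45.8 and 46.2, the mutant degron line 95.5 and 90.3 and parental cells 71.7 and 76.2. PMAIP1, the BH3-only protein NOXA, had 10.4 in both knockout libraries, while the wildtype degron line had 7.40 and 6.62, the mutant degron line 10.9 and 8.58 and parental cells 9.99 and 12.6. TP53I3, an oxidoreductase linked to reactive oxygen species, had 7.06 and 5.63 without and with Shld in the knockout line, while the wildtype degron line had 6.08 and 6.39, the mutant degron line 9.94 and 10.1 and parental cells 8.49 and 6.25. The wildtype degron libraries were the lowest for TRIAP1 and PMAIP1 and the mutant degron libraries the highest for TP53I3. The withdrawal differences in the knockout line were 0.15 for TRIAP1, 0.00 for PMAIP1 and 0.28 for TP53I3, none of them called.

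FAS, the death receptor that binds FAS ligand, had 20.8 and 19.2 without and with Shld in the knockout line, while the wildtype degron line had 10.1 and 9.01, the mutant degron line 19.9 and 21.8 and parental cells 12.5 and 13.9. The knockout and mutant degron libraries were above the other 4, and the knockout withdrawal difference of 0.11 was not called. EDA2R, a receptor of the tumour necrosis factor receptor family, had 0.52 and 0.06 without and with Shld in the knockout line, while the wildtype degron line had 6.34 and 6.67, the mutant degron line 8.04 and 7.90 and parental cells 4.37 and 3.46. Its mean of 4.67 kept it out of the test above, and all 6 libraries outside the knockout line stood far above both knockout libraries. In the fit of genes with a mean of at least 1, its withdrawal difference in the knockout line was 0.52 ± 0.21 and not called (limma, Benjamini-Hochberg adjusted p = 0.32).

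None of the 4 DNA repair genes passed the threshold in the knockout withdrawal, though all 4 differences were above 0. DDB2, the damage sensor of global nucleotide excision repair, had 27.9 and 18.8 without and with Shld in the knockout line, while the wildtype degron line had 17.2 and 17.6, the mutant degron line 20.3 and 15.4 and parental cells 18.5 and 19.4. XPC, its partner in damage recognition, had 37.1 and 25.4 without and with Shld in the knockout line, while the wildtype degron line had 22.5 and 20.6, the mutant degron line 19.9 and 18.5 and parental cells 16.9 and 16.4. The knockout library without Shld was the highest for both, with differences of 0.55 ± 0.17 for DDB2 and 0.53 ± 0.16 for XPC (limma, Benjamini-Hochberg adjusted p = 0.08 and 0.087). ASCC3, a helicase of alkylation repair, had 8.67 and 7.39 without and with Shld in the knockout line, while the wildtype degron line had 6.56 and 6.09, the mutant degron line 5.46 and 6.41 and parental cells 4.61 and 3.97. Its 2 parental values were the lowest of the 8. POLH, the translesion polymerase eta, ranged between 31.4 and 43.8, with its highest value in the knockout line without Shld and its lowest in parental cells with Shld.

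The remaining 5 genes act in metabolism, autophagy, secretion or RNA binding, and 4 of them rose in the knockout line. GDF15 had 667 and 202 without and with Shld in the knockout line, while the wildtype degron line had 1187 and 931, the mutant degron line 772 and 810 and parental cells 640 and 511. Its rise in the knockout line was 1.72 ± 0.29 (limma, Benjamini-Hochberg adjusted p = 0.0012), and it began at the lowest level of the 8 libraries and ended within the range of the others. ZMAT3, a zinc finger RNA-binding protein that affects splicing and RNA stability, had 36.2 and 15.5 without and with Shld in the knockout line, while the wildtype degron line had 12.1 and 12.5, the mutant degron line 13.3 and 12.1 and parental cells 10.6 and 7.94. It rose by 1.17 ± 0.19 (limma, Benjamini-Hochberg adjusted p = 0.00082), above all other libraries. A second ZMAT3 locus stood at 6.26 and 4.77 without and with Shld in the knockout line. There the wildtype degron line had 1.92 and 1.11, the mutant degron line 3.35 and 2.92 and parental cells 2.24 and 0.64. This locus was thus higher without Shld in every line, parental cells included.

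SESN1, a sestrin that restrains mTORC1, had 35.1 and 20.2 without and with Shld in the knockout line, while the wildtype degron line had 14.4 and 12.4, the mutant degron line 17.2 and 15.9 and parental cells 16.8 and 16.9. DRAM1, a lysosomal membrane protein of autophagy, had 14.9 and 8.20 without and with Shld in the knockout line, while the wildtype degron line had 6.94 and 5.34, the mutant degron line 5.73 and 5.75 and parental cells 5.32 and 4.80. Both rose in the knockout line and there exceeded all 7 other libraries, SESN1 by 0.76 ± 0.17 and DRAM1 by 0.79 ± 0.19 (limma, Benjamini-Hochberg adjusted p = 0.012 and 0.021). FDXR, the mitochondrial ferredoxin reductase, had 30.0 and 21.9 without and with Shld in the knockout line, while the wildtype degron line had 31.4 and 32.0, the mutant degron line 22.2 and 19.9 and parental cells 29.1 and 25.4, and its knockout difference of 0.44 ± 0.17 was not called (limma, Benjamini-Hochberg adjusted p = 0.21).

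On withdrawal from the wildtype degron line, 0.0349% of all genes were called higher and 0.0581% lower, and none of the 25 targets was called by limma. An unadjusted p under 0.05 was seen for 1 target, GADD45A, and for 341 of all 8599 genes. The differences of the targets ran between -0.14 for CCNG1 and 0.44 for GADD45A, and 19 of 25 lay above 0, where 53.8% of all genes did. On withdrawal from the mutant degron line, 0.0349% of all genes were called higher and 0.0116% lower, and none of the 25 was called either. Here 1 target, DDB2, and 146 of all 8599 genes had an unadjusted p under 0.05. In that line the differences of the targets ran between -0.20 for ASCC3 and 0.37 for DDB2, with 12 above 0, where 47.2% of all genes were. The 2 parental libraries, given as values since they supply the spread, differed by between -0.40 for RPS27L and 0.39 for TP53I3. Of the targets 16 lay above 0, where 55.8% of all genes did, and the median of the targets was 0.07. A difference of at least 0.5 was seen for 13 targets in the knockout line, where 2.42% of all genes reached it, and for 0 targets in each other line, where the shares of all genes were 0.407% (wildtype degron), 0.454% (mutant degron) and 0.337% (parental).

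The differences between withdrawals were tested directly. Set against the mutant degron line, where 0.174% of genes were called higher and 0.279% lower, the knockout change was larger for 4 targets: CDKN1A by 1.69 ± 0.27, GDF15 by 1.78 ± 0.40, BTG2 by 1.12 ± 0.24 and TP53INP1 by 1.03 ± 0.24 (limma, Benjamini-Hochberg adjusted p = 0.0037, 0.040, 0.033 and 0.042). With median scaling, or with genes down to a mean of 1 included, 1 of the 25 was called. Set against the wildtype degron line, where 0.0116% of genes were called in each direction, none of the 25 was called by limma. An unadjusted p under 0.05 was seen for 9 of the 25 and for 269 of all 8599 genes. CDKN1A came nearest with a difference of 1.34 ± 0.27 (limma, Benjamini-Hochberg adjusted p = 0.084), followed by ZMAT3 with 1.21 ± 0.26 (adjusted p = 0.10). Between the wildtype degron and mutant degron lines, where 0.0465% of genes were called higher and 0.198% lower, none of the 25 was called. None had an unadjusted p under 0.05, where 373 of all 8599 genes did. Across the 25 targets the knockout and wildtype degron withdrawals had a Pearson correlation of 0.61 and a Spearman correlation of 0.57. These genes share the 4 libraries behind them. All 25 knockout differences lay above 0, so a count of equal signs would only repeat the count above 0 in the other line and is not given. Over all genes the correlations were 0.51 and 0.50. For the knockout and mutant degron withdrawals the correlations across the targets were -0.08 and -0.02, against -0.06 and -0.12 over all genes.

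Before withdrawal, with Shld present, each line held targets above and targets below the parental level. The knockout, wildtype degron and mutant degron lines were each compared with the same 2 parental libraries, so these comparisons share their controls. In the knockout line 9 targets were higher and 2 lower than parental cells, where 13.8% of all genes were called higher and 15.2% lower. The highest were TP53INP1 by 0.93 ± 0.14, PLK2 by 0.77 ± 0.15, ZMAT3 by 0.69 ± 0.16 and ASCC3 by 0.67 ± 0.16 (limma, Benjamini-Hochberg adjusted p = 1.8e-05, 0.0002, 0.0017 and 0.0031). The other 5 that were higher were DRAM1 with 0.60, XPC with 0.58, BTG2 with 0.52, FAS with 0.51 and AEN with 0.49. GDF15 was lower by limma (log2 difference -1.49 ± 0.25, Benjamini-Hochberg adjusted p = 4.3e-05), as was PPM1D (-0.60 ± 0.14, adjusted p = 0.0023). With the knockout line taken as the mean of both its libraries and the spread from all 4 pairs, the GDF15 difference shrank to -0.64 and was not called (limma, Benjamini-Hochberg adjusted p = 0.27), while MDM2, SESN1 and TRIAP1 were called higher by 0.74, 0.63 and 0.42. CDKN1A, the gene that rose most on withdrawal, began near the parental level, with a difference of -0.22 that was not called.

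For the wildtype degron line 2 targets were higher and 7 lower than parental cells, with 17.7% of all genes called higher and 18.4% lower. GDF15 was higher by 0.70 ± 0.25 and ASCC3 by 0.43 ± 0.16 (limma, Benjamini-Hochberg adjusted p = 0.029 and 0.046), and each was called in 4 of 8 alternative settings. RPS27L was the lowest (-1.27 ± 0.19, limma, Benjamini-Hochberg adjusted p = 3.7e-05), in the line where ribosomal protein genes as a whole took the smallest share of the sum and where RPS27 had 959 and 1010. The part of that share in the RPS27L value was not tested. The other 6 were PMAIP1 with -0.68, TRIAP1 with -0.67, PLK2 with -0.65, FAS with -0.50, CCNG1 with -0.49 and SESN1 with -0.41, which spans apoptosis, arrest, feedback and metabolism genes.

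In the mutant degron line 5 targets were higher and 1 lower than parental cells, where 10.1% of all genes were called higher and 10.6% lower. TP53INP1 was higher by 1.06 ± 0.14, PLK2 by 0.70 ± 0.15 and FAS by 0.68 ± 0.15 (limma, Benjamini-Hochberg adjusted p = 5.8e-06, 0.001 and 0.0014), and ASCC3 and BTG2 by 0.49 and 0.42. FDXR was lower (-0.43 ± 0.15, limma, Benjamini-Hochberg adjusted p = 0.037). ASCC3, BTG2 and FDXR were each called in 4 of 8 alternative settings. In the fit of genes with a mean of at least 1, EDA2R was lower in the knockout line (-2.21 ± 0.18) and higher in the wildtype degron and mutant degron lines (0.65 ± 0.18 and 0.86 ± 0.18) than in parental cells (limma, Benjamini-Hochberg adjusted p = 1e-05, 0.024 and 0.009). It stood near 0 in the knockout line, so the fitted difference of that line depends on the added 1 and is no bound.

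**Figure D3:**
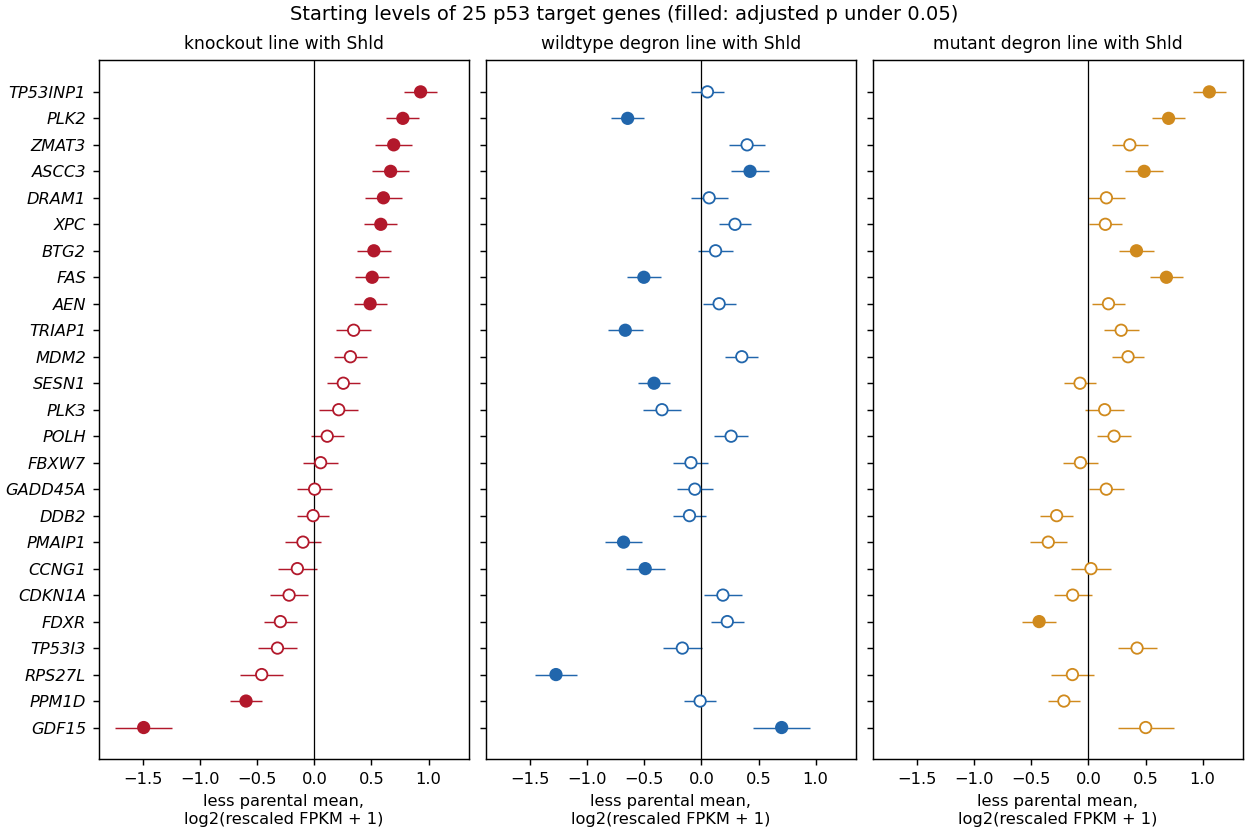
Starting levels of 25 direct p53 target genes with Shld in the knockout line, the wildtype degron line and the mutant degron line, each less the mean of the same 2 parental libraries on the log2(rescaled FPKM + 1) scale (x axis), with SE bars. Filled circles are past an adjusted p of 0.05: 11, 9 and 6 genes. TP53INP1 and PLK2 lie to the right in the knockout and mutant degron lines, and GDF15 lies far to the left in the knockout line.

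The edited lines were also set against each other with Shld. The knockout line was higher than the wildtype degron line for 9 targets and lower for 3, where 17.9% of all genes were called higher and 18.7% lower, led by PLK2 with 1.42 ± 0.17, TRIAP1 with 1.01 ± 0.18 and FAS with 1.01 ± 0.17 and, among those lower, GDF15 with -2.20 ± 0.29. The mutant degron line was higher than the wildtype degron line for 7 targets and lower for 1, where 17% of all genes were called higher and 17.7% lower, led by PLK2 with 1.35 ± 0.17 and FAS with 1.19 ± 0.17, and FDXR was lower with -0.66 ± 0.17. Between the knockout and mutant degron lines no target was called higher and 2 were called lower in the knockout line, where 2.98% of all genes were called higher and 3.9% lower. These were GDF15 (-2.00 ± 0.29) and TP53I3 (-0.75 ± 0.20), with adjusted p-values of 2.2e-05 and 0.018 (limma, Benjamini-Hochberg), of which TP53I3 was called in 3 of 6 alternative settings. For both genes the knockout library with Shld was the lowest of the 8.

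Starting and final levels differed among the genes that rose. The knockout library without Shld was the highest of the 8 for 18 of the 25 targets, where it was highest for 14% of all genes, and these 18 include 10 of the 11 that rose. All 11 ended above the parental mean, with a median start of 0.25 and a median end of 1.16 on the log2 scale relative to it. The 14 others had a median start of 0.08 and a median end of 0.46. The 11 were called on the same library without Shld. Their higher ends and their place among the 18 therefore follow in large part from that choice. The start and the withdrawal difference share the knockout library with Shld, so no relation between them is given.

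**Figure D4:**
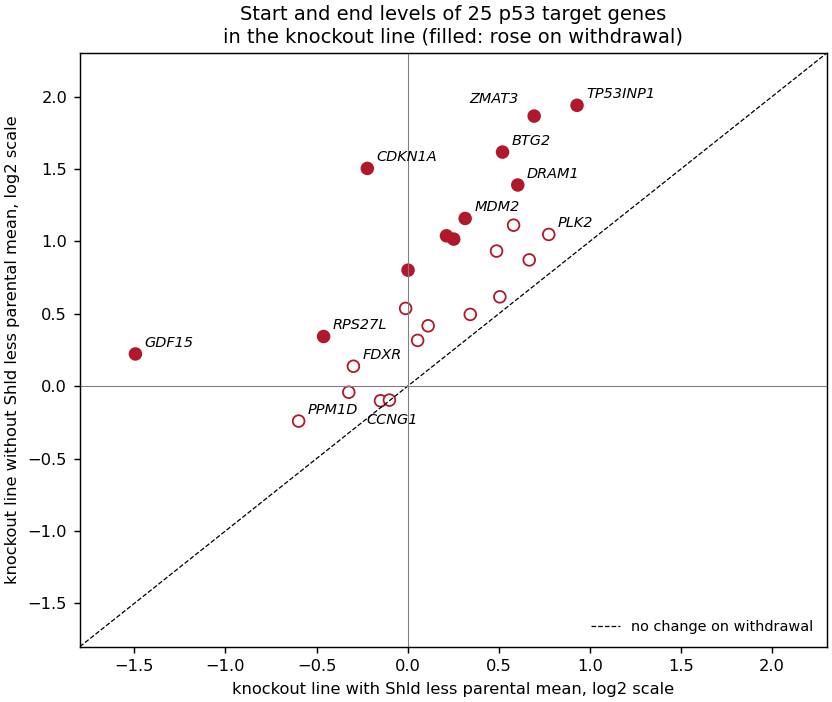
Level of 25 direct p53 target genes in the knockout line without Shld (y axis) against the level in the knockout line with Shld (x axis), both less the parental mean on the log2 scale, 1 point per gene. Filled points are the 11 genes that rose, and the dashed line marks no change on withdrawal. CDKN1A starts at -0.22 and GDF15 at -1.49, while TP53INP1 and ZMAT3 start above parental cells and end highest.

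Other genes of the pathway were taken from 3 lists, to be read against the 0.965% of all genes called higher and 1.77% called lower in the knockout withdrawal. Of 32 further p53 targets in the test, 2 rose and none fell in the knockout withdrawal, with a median of 0.21: BAX, the pore-forming effector of apoptosis, by 0.77 ± 0.20 and SESN2, a second sestrin, by 0.73 ± 0.18 (limma, Benjamini-Hochberg adjusted p = 0.033 and 0.024). BAX had 195 and 114 without and with Shld in the knockout line, while the wildtype degron line had 185 and 160, the mutant degron line 125 and 119 and parental cells 154 and 156, so its rise took it above the other libraries. Of 20 regulators of p53 in the test none rose and 1 fell, the checkpoint kinase gene CHEK2 (-0.68 ± 0.17, limma, Benjamini-Hochberg adjusted p = 0.025), with 15.3 and 25.04 without and with Shld in the knockout line. The third list held 22 genes known to be repressed through p21 and the DREAM complex, which silences cell cycle genes. Of these 8 fell and none rose in the knockout withdrawal, all 22 lay below 0, and the median was -0.57. Over all genes 50.6% lay above 0 and the median was 0.003. The 3 lists were chosen with earlier results of these data known.

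The 6 repressed genes with the largest falls were CENPA (-0.91), a centromere histone, MCM7 (-0.85), a replicative helicase subunit, MYBL2 (-0.85), a cell cycle transcription factor, TOP2A (-0.80), topoisomerase II, BUB1 (-0.70), a checkpoint kinase, and CDC20 (-0.68), an activator of the anaphase-promoting complex. MYBL2 had 56.7 and 103 without and with Shld in the knockout line, while the wildtype degron line had 61.8 and 84.5, the mutant degron line 88.6 and 86.2 and parental cells 76.9 and 66.2. In the withdrawals of the degron lines no gene of the 3 lists was called by limma, with 1 further target and 2 repressed genes of the wildtype degron line and 0 genes of the mutant degron line at an unadjusted p under 0.05, and the medians of the repressed genes were -0.15 and -0.03.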

How the data were processed

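RNA of 8 MEL202 libraries was sequenced as paired reads of 100 bases, per the labels' protocols. TopHat, Cufflinks and hg19 are named, per the submitters' processing notes. Versions, annotation and strand setting are not given in these sources, so overlapping and antisense genes cannot be told apart. The authors deposited 1 table of FPKM-type values rescaled so that each library's 75th percentile is 10; that FPKM was the input is inferred from Cufflinks and the values. They are not counts, and the depth is unknown. Further loci under a member's name were left out of the test.

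All 8599 named genes averaging at least 5 were fitted with limma 3.58.1 (R 4.3.3) on log2(value + 1), with a variance trend. Small RNAs and unnamed loci were left out. For each full gene name 1 locus was kept, and names joined by commas counted as 1 name. The 2 parental libraries shared a mean and gave 1 residual degree of freedom, with 23.3 prior degrees of freedom, and the other 6 libraries had a coefficient each. Benjamini-Hochberg adjustment ran over all genes fitted, at a threshold of 0.05. The fit was tested on simulated data. Alternatives were other pseudocounts, filters, scalings and sources of the spread, the change less that of the parental pair, a single parental library and line as a block. The members and the lists were chosen with earlier results of these data known. Named genes were all members, with the value in every library for members past the threshold in any comparison and for the 12 largest changes in the knockout withdrawal, and from each other list up to 6 called genes with the largest changes. Some genes are not reported here.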

Additional observations from a re-analysis of the deposited data

Results flagged for a closer look

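For 4 targets the change on Shld withdrawal differed between the knockout line and the mutant degron line by a direct test of that difference. On the log2 scale the knockout change less the mutant degron change was 1.692 for CDKN1A, 1.785 for GDF15, 1.119 for BTG2 and 1.033 for TP53INP1 (limma, Benjamini-Hochberg adjusted p = 0.0037, 0.040, 0.033 and 0.042). Over the 6 alternative settings CDKN1A was called in 5, GDF15 in 3, BTG2 in 2 and TP53INP1 in 1. By the headers the knockout line was without Shld for 4 days and the mutant degron line for 2 days, so time and genotype cannot be told apart.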

How the results depend on the processing

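Each group has 1 library, so no line had replicate pairs, and pairing was possible only across the 4 lines. A fit with line as a block, chosen after seeing the data, tests another quantity, the Shld change averaged over the 4 lines: limma called 0 of the 25 targets and 0 genes, with 9 targets and 527 genes at an unadjusted p under 0.05 and a median of 0.19 over the targets. The direction of every called target held in every alternative. Settings that change only the filter or the spread leave a difference as it was, so direction could not change in them. Less the parental pair's change, which moves each value by construction, the 11 rises lay between 0.50 for GADD45A and 1.59 for CDKN1A. Counts of called targets among the 25 changed with the settings: with no filter on the mean every count was 0, with 0.873 prior degrees of freedom. With a mean of at least 1 there were 6 in the knockout withdrawal, 1 in knockout less mutant degron withdrawal, 3 in mutant degron against parental and 1 in knockout against mutant degron, not counting EDA2R, which was tested at that filter and called in both of these baselines. Knockout less mutant degron withdrawal gave 2 with quantile normalization and 1 with median scaling, and knockout against mutant degron gave 1 with quantile normalization. With the spread of the parental and mutant degron pairs, 7 were called in the knockout withdrawal. With that of the parental and knockout pairs, mutant degron against parental gave 2, mutant degron against wildtype degron 3 and wildtype degron against parental 5. Over all genes, 235 were called in the knockout withdrawal, against 53 with a mean of at least 1, 91 with quantile normalization and 112 with the parental and mutant degron spread. For withdrawal differences between the knockout and mutant degron lines, 15 genes were called higher and 24 lower, against 3 and 3 with quantile normalization and 5 and 13 with median scaling. For the mutant degron withdrawal the split was 3 and 1, against 0 and 0 and 1 and 1, and for wildtype degron less mutant degron 4 and 17, against 0 and 3 under both scalings. With 1 library per group, no value of an edited line has a replicate check, and without counts the precision of low values is unknown.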

Other observations

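Starting levels with Shld present were also compared for other genes of the p53 pathway, against the same 2 parental libraries. Over all genes, 13.8% were called higher and 15.2% lower in the knockout line, 17.7% and 18.4% with the wildtype degron, and 10.1% and 10.6% with the mutant degron, and the counts below are to be read against these shares and are not results about the pathway. Of 32 further p53 targets, the knockout line had 6 higher and 7 lower, the wildtype degron line 5 and 5, and the mutant degron line 6 and 4. KITLG, the ligand of the KIT receptor, had 13.9 in the knockout line, 1.79 with the wildtype degron and 9.87 with the mutant degron, against 2.19 and 1.81 in parental cells without and with Shld. BTG1, a paralogue of BTG2, had 26.8 in the knockout line, 7.37 with the wildtype degron and 10.9 with the mutant degron, against 10.3 and 8.99 in parental cells without and with Shld. TP53I11 had 8.04 in the knockout line, 54.3 with the wildtype degron and 16.7 with the mutant degron, against 42.04 and 36.7 in parental cells without and with Shld. In the knockout line KITLG was higher by 2.31 ± 0.17 and BTG1 by 1.38 ± 0.15 on the log2 scale, and TP53I11 stood at -2.16 ± 0.15 (limma, Benjamini-Hochberg adjusted p = 7.3e-11, 7.9e-08 and 1.5e-11).

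Of 20 regulators of p53, the knockout line had 3 higher and 2 lower, the wildtype degron line 5 and 3, and the mutant degron line 2 and 1. PRKDC, the catalytic subunit of DNA-dependent protein kinase, was higher than in parental cells by 1.02 ± 0.16 in the knockout line, 1.05 ± 0.16 with the wildtype degron and 0.82 ± 0.16 with the mutant degron (limma, Benjamini-Hochberg adjusted p = 2.9e-05, 6.3e-05 and 0.0007). Each of these comparisons uses the same parental libraries.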
